A study of Caenorhabditis elegans with 18 samples.

Results

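The data described here are the arrays of Caenorhabditis elegans given a tocotrienol-rich fraction (TRF) and nothing else, set against untreated worms. Members were chosen by their titles: the 4 arrays named TRF and the 5 named control, 9 of the 18 arrays in the series. The comparison was made over 13529 of 22548 probe sets, those with a mean signal above a low-signal filter. All worms were wild type (N2), grown at 20 °C on NGM plates with E. coli OP50 as food. The TRF worms received TRF throughout the life cycle, and the control worms received neither TRF nor hydrogen peroxide. The other 9 arrays held worms given TRF before and after hydrogen peroxide, from hatching to day 3 of adulthood (TRF+H2O2+TRF, n = 4), and worms given 0.3 mM hydrogen peroxide for 2 h at the L4 larval stage without TRF (H2O2, n = 5). The labels give no TRF dose and no age at harvest. The hydrogen peroxide dose of the TRF+H2O2+TRF worms is not repeated in their label. Whether replicates were grown apart is not stated either, and the spread that the p-values rest on may be technical.

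Tocotrienols are forms of vitamin E with an unsaturated isoprenoid side chain. They dissolve in fat and are known as chain-breaking antioxidants of lipids. In the worm, food compounds meet the intestine first, a single-layered organ that digests bacteria, stores fat, makes yolk and antimicrobial proteins, and clears foreign molecules. Clearance runs through cytochrome P450 enzymes that oxidise a compound, transferases that join it to a sugar or to glutathione, and ABC transporters that export it, with nuclear hormone receptors among the known controls of these genes.

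Total RNA of whole worms was measured on Affymetrix expression arrays, and each value is a MAS5 signal, a probe set's brightness on a linear scale. The trimmed mean signal was 500.1 on each array. Averaged over the other arrays, correlations were 0.963 to 0.969 for TRF arrays and 0.956 to 0.970 for control arrays. None of the markers kept for intestine, muscle, pharynx, hypodermis, neurons, germline, oocytes, sperm, embryos or coelomocytes had an unadjusted limma p under 0.05 between TRF and control worms. Sperm markers varied widely within both groups: the major sperm protein probe sets summed to 2123 to 33171 in TRF arrays and 3404 to 30554 in control arrays. All 7 measured sperm markers had a lower mean in TRF worms, but their median log2 fold change of -0.16 ranged from -0.69 to 0.50 when 1 array was left out at a time or other settings were used, and was above 0 without TRF replicate 4 or without control replicate 1, 2 or 3; their mean log2 signal per array was 6.53 to 10.30 in TRF arrays and 7.12 to 10.18 in control arrays. The part of sperm content in the results was not tested. None of 4 male markers passed the filter. In whole worms, fewer cells of a type and less RNA per cell cannot be told apart.

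One gene rose in the TRF worms, and none fell, at an adjusted p under 0.05 (limma, Benjamini-Hochberg over 13529 probe sets). This was 0.00739% of the probe sets. A fit of the arrays numbered 1, 2 and 4 with the number as a block called 25. Those are the numbers whose TRF and control arrays varied together in these data, so that count is no independent support. A block over all shared numbers called 1. The gene was F42A10.7, for which no role is given here. Its signal was 1853, 1588, 1471 and 1100 in the TRF arrays, against 304, 345, 309, 316 and 176 in the control arrays. Every TRF array lay above every control array. The mean was 1503 ± 313 in TRF worms and 290.2 ± 66 in control worms (SD, n = 4 and 5). On the log2(signal + 1) scale the difference was 2.38 ± 0.215 (SE), with a 95% interval from 1.91 to 2.85, or 5.21-fold (limma adjusted p = 0.00143).

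Genes listed beside F42A10.7 in the reference gene table had smaller differences. F42A10.6, next to it on one side, had a log2 fold change of 0.32 ± 0.131 with an unadjusted limma p under 0.05 (adjusted p = 0.995), and abcf-3 beyond it had 0.09. Further out, F42A10.5 had -0.10 with 1 probe set and -0.32 ± 0.114 with another. On the other side, nas-28 next to it had 0.13 and C23G10.5 beyond that had 0.47 ± 0.235.

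At an unadjusted limma p under 0.05, 287 probe sets (2.12%) were higher and 187 (1.38%) were lower in TRF worms, 474 in all (3.50%). An unadjusted p under 0.05 would pick out about 676 of 13529 probe sets if none differed. With the block over numbers 1, 2 and 4 the limma count was 1277, so it depended on how replicate numbers were treated. The arrays of the groups did not overlap for 160 probe sets (1.18%), 73 higher (0.540%) and 87 lower (0.643%). Taken as 1 probe set a gene, 124 of 10286 genes (1.21%) had groups that did not overlap: 54 (0.525%) had all TRF arrays above all control arrays and 70 (0.681%) had all below. The genes described next are the 20 in each direction with the smallest p among these, with members of gene lists beside them. Apart from F42A10.7 their adjusted p was 0.301 to 0.995, so their values are given as measured differences that did not pass the test over all probe sets.

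**Figure D1:**
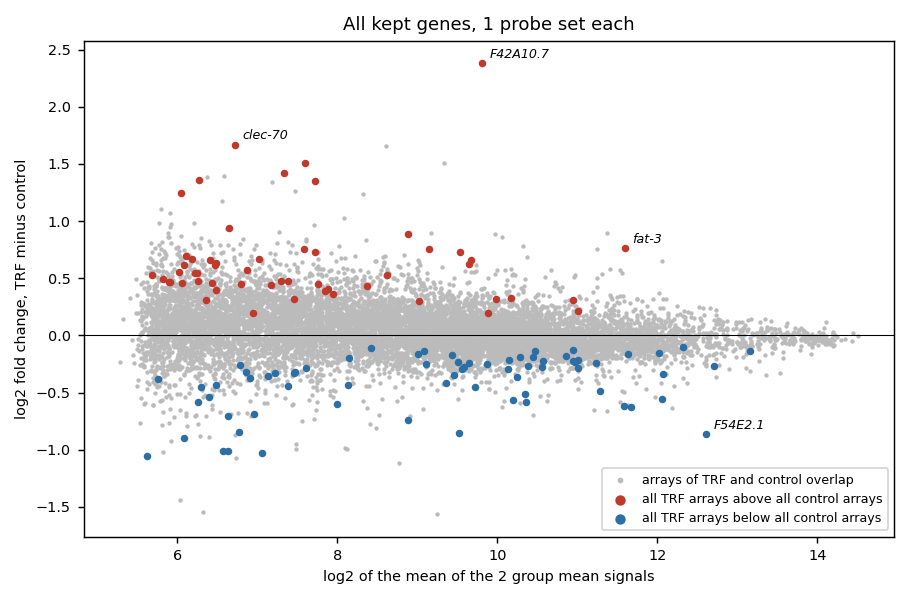
Log2 fold change (TRF minus control, vertical axis) of the 10286 genes against the log2 of their mean signal (horizontal axis), 1 point a gene. Red points are the 54 genes with all TRF arrays above all control arrays and blue points the 70 with all below, and F42A10.7 at 2.38 stands above all other genes.

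Among genes of lipid metabolism, fat-3 had the smallest limma p after F42A10.7. It encodes the delta-6 fatty acid desaturase that starts the synthesis of long polyunsaturated fatty acids. Its signal was 4165, 3670, 4219 and 3474 in TRF arrays, against 2403, 2259, 2681, 2472 and 1709 in control arrays. No TRF array came near the control range. The log2 fold change was 0.76 ± 0.133 (limma adjusted p = 0.301). The neighbouring desaturase gene fat-4, which encodes the delta-5 enzyme, had a log2 fold change of -0.06.

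The list of fatty acid synthesis and desaturation genes, which holds fat-3, had values in both directions. Of 19 measured members, 6 had a higher and 13 a lower mean in TRF worms, with a median log2 fold change of -0.09. Over all 10286 genes 56.1% had a higher mean and the median was 0.03, and the lists below are read beside these values. These values were not matched to the signal level of any list. The stearoyl-CoA desaturase gene fat-6 averaged 5682 ± 502 in TRF worms and 6848 ± 760 in control worms, a log2 fold change of -0.27 (limma adjusted p = 0.995). Values of the fatty acid elongase genes elo-3 and elo-5 were -0.54 and -0.34 on the same scale, both with an unadjusted p above 0.05.

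Fatty acid oxidation genes had values in both directions too. Of 51 measured, 31 (60.8%) had a higher mean in TRF worms, near the 56.1% of all genes. Their median was 0.11, and 4 higher and 1 lower had an unadjusted limma p under 0.05, against 2.02% and 1.44% of all genes. The acyl-CoA synthetase gene acs-2, a known marker of fasting, had signals of 1473, 1569, 1701 and 731 in TRF arrays and 588, 920, 391, 766 and 1180 in control arrays, so the groups overlapped. Its log2 fold change was 0.86 ± 0.318. The carnitine palmitoyltransferase gene cpt-4, of the step that passes fatty acids into mitochondria, had a value of 0.72 ± 0.266. The further probe set of cpt-4 gave 0.45 ± 0.254. For acox-3, an acyl-CoA oxidase gene of peroxisomes, the log2 fold change was 0.55 ± 0.205. Lower in TRF worms was ech-7, which encodes an enoyl-CoA hydratase family protein: 953, 1117, 1143 and 937 in TRF arrays, against 1368, 1743, 1354, 2285 and 1193 in control arrays, with no overlap and a log2 fold change of -0.58 ± 0.179.

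The 17 measured lipase genes divided into 8 higher and 9 lower. Among them lips-14 had 0.79 ± 0.307. The acid sphingomyelinase gene asm-3, whose product splits sphingomyelin, had signals of 315, 110, 470 and 93.5 in TRF arrays and 73.6, 52.5, 73.4, 92.1 and 80.5 in control arrays. The groups did not overlap, but 93.5 lay just above the highest control, and the log2 fold change was 1.42 ± 0.427.

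Yolk genes had values close to 0. All 5 vitellogenins had log2 fold changes between -0.02 and 0.07. For vit-2 the mean signal was 11194 ± 1140 in TRF worms and 11297 ± 432 in control worms.

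Sterol handling included a pair of genes with separate groups. The first was daf-36, which encodes a Rieske-type oxygenase that takes the first step from cholesterol to dafachronic acid, the steroid hormone ligand of the nuclear receptor DAF-12. Its signal was 97.4, 51.5, 71.2 and 93.1 in TRF arrays, against 120, 163, 135, 170 and 108 in control arrays. The log2 fold change was -0.85 ± 0.241 (limma adjusted p = 0.995). For nhr-8, a nuclear receptor gene known for roles in xenobiotic resistance and cholesterol balance, the signals were 243, 239, 243 and 227 in TRF arrays and 353, 314, 306, 380 and 265 in control arrays. The TRF values of nhr-8 lay close together and below the lowest control, and the log2 fold change was -0.43 ± 0.154. The list of sterol and lipid transport genes had 12 of 23 members higher and a median of 0.01, and its lowest-p member, the lipid-binding protein gene lbp-7, had -0.45 ± 0.187. In the list of mevalonate and ubiquinone synthesis, the pathway that makes isoprenoid chains in the worm, 12 of 17 members were higher, none had an unadjusted p under 0.05, and the median of 0.06 became -0.01 after median centring of the arrays.

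**Figure D2:**
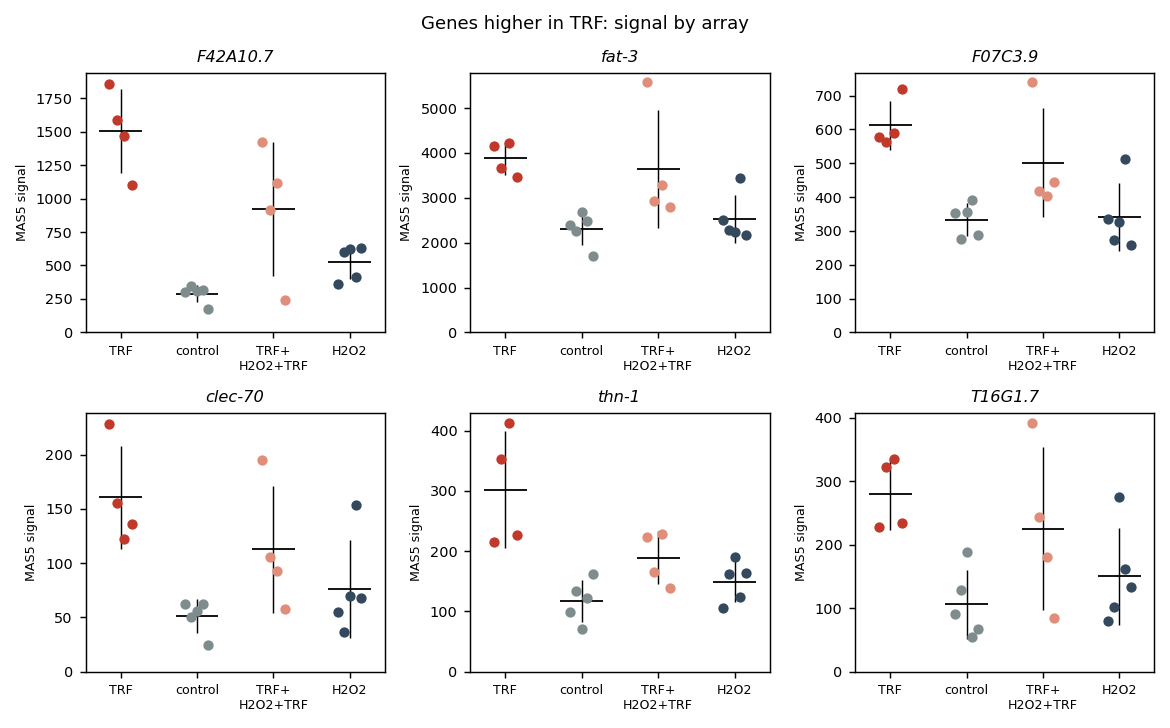
MAS5 signal (vertical axes, linear, from 0) of 6 genes in every array of the 4 groups: 1 point an array, horizontal line the mean, vertical line ± SD. The 4 TRF arrays of each gene lie above all 5 control arrays, whereas TRF+H2O2+TRF and H2O2 arrays overlap for all 6.

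Detoxification genes were described by step. Of 38 measured cytochrome P450 genes, 24 had a higher mean in TRF worms and the median was 0.13. A pair of them (5.26%), cyp-34A2 and cyp-34A9, had an unadjusted limma p under 0.05, beside 3.46% of all genes. Signals of cyp-34A2 were 242, 324, 210 and 219 in TRF arrays and 145, 121.8, 108, 124 and 213 in control arrays; a single control array, at 213, reached into the TRF range. Its log2 fold change was 0.82 ± 0.226 and that of cyp-34A9 was 0.47 ± 0.198. With the filter at the 60th percentile the median of the remaining P450 genes was -0.03.

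UDP-glucuronosyltransferases, which attach a sugar to fat-soluble compounds, were higher for 33 of 45 genes, with a median of 0.13. That median ranged from 0.047 to 0.256 over the settings tried. Named members are ugt-1 with 0.96 ± 0.299, ugt-25 with 0.60 ± 0.191 and ugt-51 with 0.84 ± 0.361. These 3 were the members with an unadjusted limma p under 0.05, against 2.02% of all genes, and none was lower at that level; the groups of each overlapped. Glutathione S-transferases leaned the opposite way, with 10 of 33 higher and a median of -0.10. Their lowest-p member gstk-1, of the kappa class, averaged 1170 ± 110 in TRF worms and 1524 ± 166 in control worms, a log2 fold change of -0.38 ± 0.121. In gst-5 the value was -0.40 ± 0.194.

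ABC transporter genes were higher for 26 of 37, with a median of 0.09 that ranged from 0.0012 with quantile normalization to 0.165 with the filter at the 60th percentile. The group held mrp-1, a multidrug resistance-associated pump gene, whose TRF signals of 464, 364, 351 and 337 lay just above control signals of 333, 206, 287, 313 and 273. Its log2 fold change was 0.43 ± 0.178. The P-glycoprotein gene pgp-10 had 0.69 ± 0.236 and the half-transporter gene pmp-2 had 0.50 ± 0.224, both with overlapping groups. Nuclear hormone receptor genes were higher for 94 of 136, with a median of 0.09. Beside nhr-8, the one other member with an unadjusted limma p under 0.05 was nhr-15, at 0.71 ± 0.267. Members at that level were 1.47% of the list, beside 3.46% of all genes. The median of the receptor list ranged from 0.011 to 0.138 over the settings tried. Its mean log2 signal per array was 7.20 to 7.40 in TRF arrays and 6.98 to 7.29 in control arrays, so the groups overlapped.

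Short-chain dehydrogenases, a broad family of oxidoreductases, were higher for 18 of 29, with a median of 0.03 equal to that of all genes. The groups of 2 of the 29 members did not overlap, beside 1.21% of all genes. One was dhs-23, with signals of 72.4, 92.3, 147 and 66.4 in TRF arrays and 50.5, 40.3, 35.8, 33 and 30.1 in control arrays. Its log2 fold change was 1.25 ± 0.278 (limma adjusted p = 0.692), and its signals were low in both groups. The other, dhs-17, chosen after its values were seen, was lower in every TRF array, at -0.26 ± 0.172.

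Of 27 superoxide and peroxide enzyme genes, 11 were higher and 16 lower, none with an unadjusted limma p under 0.05. Their median was -0.07 and their log2 fold changes ran from -0.25 to 0.81, with the cytosolic superoxide dismutase gene sod-5 at 0.43 ± 0.268. The SKN-1 phase II list had 9 of 14 higher, values from -0.52 to 0.63 and also none at that level. Mean signals of sod-3, a mitochondrial superoxide dismutase and a common reporter of DAF-16 activity, were 214 ± 40.2 in TRF worms and 243 ± 58.6 in control worms. The glutathione S-transferase gst-4, a common reporter of SKN-1 activity, averaged 1317 ± 431 in TRF worms and 1417 ± 596 in control worms, and its log2 fold change of -0.04 had a 95% interval from -0.77 to 0.70. For gcs-1, of glutathione synthesis, the log2 fold change was 0.28 ± 0.164, and for the peroxisomal catalase ctl-2 it was -0.01 ± 0.105. The further probe set of gcs-1 gave 0.02 ± 0.185.

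Of 48 heat shock protein genes, 32 were higher, with a median of 0.07 that became -0.02 with replicate numbers 1, 2 and 4 as a block. The small heat shock protein hsp-16.2 had a log2 fold change of 0.57 ± 0.509, the endoplasmic reticulum chaperone hsp-4 had 0.11 and the mitochondrial chaperone hsp-6 had 0.10. Among J-domain co-chaperones, dnj-29 lay higher in all TRF arrays (0.33 ± 0.120) and dnj-17 lower in all (-0.23 ± 0.103). The further probe set of dnj-29 gave 0.12 ± 0.237. Of the transcription factors behind these defences, daf-16 had 0.05 ± 0.161 and skn-1 had 0.06 ± 0.207. All 8 measured genes of the insulin pathway had a higher mean, but by 0.00 to 0.19 on the log2 scale, and none had an unadjusted p under 0.05.

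Metal and iron genes split. The ferritin gene ftn-1, of iron storage, had signals of 3018, 4263, 3410 and 2773 in TRF arrays and 1256, 2911, 1216, 1457 and 2766 in control arrays. Of the controls, 1 lay inside the TRF range, 1 just below it and 3 far below. The log2 fold change of ftn-1 was 0.90 ± 0.269. The metallothionein gene mtl-1 had -0.29 ± 0.246. In the cadmium-responsive family, cdr-2 had signals of 1032, 840, 916 and 983 in TRF arrays, against 1619, 1166, 1296, 1628 and 1317 in control arrays. No array of cdr-2 overlapped, and its log2 fold change was -0.57 ± 0.134 (limma adjusted p = 0.909). For its relative cdr-4 the value was -0.59 ± 0.344, with overlapping groups.

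C-type lectins, secreted or membrane proteins with a carbohydrate-binding type of fold, many of them made in the intestine during infection, had values in both directions. Of 66 measured genes, 13 (19.7%) had an unadjusted limma p under 0.05, 5 higher and 8 lower, beside 3.46% of all genes. Of the 66, 2 lay fully above and 4 fully below the control arrays, beside 0.525% and 0.681% of all genes. The median of the list was -0.07.

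On the higher side, clec-70 had signals of 228, 155, 122.03 and 136 in TRF arrays and 62, 50.5, 56, 62.1 and 24.1 in control arrays. Each TRF array lay well above the highest control. The log2 fold change was 1.67 ± 0.306, or 3.18-fold (limma adjusted p = 0.325). Control signals of clec-70 were low, with a mean of 50.9, near the filter level of 47.0. For clec-5 the signals were 874, 1381, 443 and 1121 in TRF arrays and 410, 493, 304, 354 and 130 in control arrays, with 1 TRF array inside the control range and a log2 fold change of 1.51 ± 0.390.

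On the lower side, clec-65 had signals of 2286, 2333, 2874 and 2742 in TRF arrays and 3487, 4181, 3965, 4435 and 3615 in control arrays. The gap between the groups was as wide as the TRF range. Its log2 fold change was -0.62 ± 0.111 (limma adjusted p = 0.301), and its further probe set gave -0.49. Beside it in the gene table stand other lectins: clec-66 had 553, 526, 610 and 362 in TRF arrays and 921, 711, 1523, 889 and 718 in control arrays, without overlap, and a log2 fold change of -0.86 ± 0.231. The nearby clec-62 and clec-63 had -0.47 and -0.33, both with an unadjusted p under 0.05, so the 4 measured lectins of this run were all lower. Near-identical copies could share probes, which was not tested.

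Elsewhere in the genome, clec-186 had signals of 2016, 2865, 2236 and 2603 in TRF arrays, against 3151, 4046, 4316, 3913 and 3165 in control arrays. The log2 fold change was -0.61 ± 0.136 (limma adjusted p = 0.692), and clec-150 had -0.49 ± 0.157 with no overlap. The further probe set of clec-150 gave -0.32 ± 0.251.

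Other immune effector genes leaned higher. Of 52 lysozymes, saposin-like and antimicrobial peptide genes, 37 were higher, with a median of 0.14, and 4 higher and 1 lower had an unadjusted limma p under 0.05, against 2.02% and 1.44% of all genes. The thaumatin-like gene thn-1, of a family related to plant defence proteins, had signals of 216, 353, 413 and 227 in TRF arrays and 98.6, 134, 70.3, 122.6 and 163 in control arrays. No array overlapped, and the log2 fold change was 1.35 ± 0.277, or 2.56-fold (limma adjusted p = 0.608). The adjacent invertebrate lysozyme genes ilys-3 and ilys-2 had 1.65 ± 0.509 and 1.24 ± 0.383. For ilys-3 the signals were 559, 1044, 147 and 684 in TRF arrays and 190, 270, 102, 209 and 83.8 in control arrays, so 3 TRF arrays lay above all controls and the third replicate did not. The protist-type lysozyme gene lys-2 was the lower one, with 5964 ± 1015 in TRF worms, 7665 ± 1102 in control worms and a log2 fold change of -0.37 ± 0.138.

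A list of 12 CUB-like and intestinal immune genes had 2 members higher and 10 lower, with a median of -0.35. The claudin-like gene cld-9 had -0.57 ± 0.224 and irg-7, an infection response gene, had -0.28 ± 0.121. These 2 (16.7%) had an unadjusted limma p under 0.05, beside 3.46% of all genes, and the groups of each overlapped. The mean log2 signal of the list per array was 8.57 to 8.80 in TRF arrays and 8.40 to 9.47 in control arrays, so the arrays of the groups overlapped as a list too. In TRF+H2O2+TRF arrays the same list had 2 of 12 higher than in H2O2 arrays, with a median of -0.24.

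Intestinal proteases were likewise mostly lower, 15 of 18, with a median of -0.12. The cathepsin B-like genes cpr-3 and cpr-9 had -0.70 ± 0.264 and -0.31 ± 0.119. Of the intestine markers 4 of 9 were higher, with a median of -0.01 that ranged from -0.097 to 0.067 over the settings tried. The part of intestinal content in the protease values was not tested. The mean log2 signal of the protease list per array was 11.08 to 11.51 in TRF arrays and 11.33 to 11.75 in control arrays, so the groups overlapped. A pair of peptidase genes outside that list had separate groups. The prolyl carboxypeptidase-like gene pcp-1 had signals of 753, 790, 667 and 626 in TRF arrays and 486, 315, 452, 472 and 389 in control arrays, a log2 fold change of 0.76 ± 0.161. The putative serine protease gene K12H4.7 had 3865, 2860, 3712 and 3259 in TRF arrays and 4944, 4067, 6208, 5776 and 4378 in control arrays, a value of -0.56 ± 0.141.

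**Figure D3:**
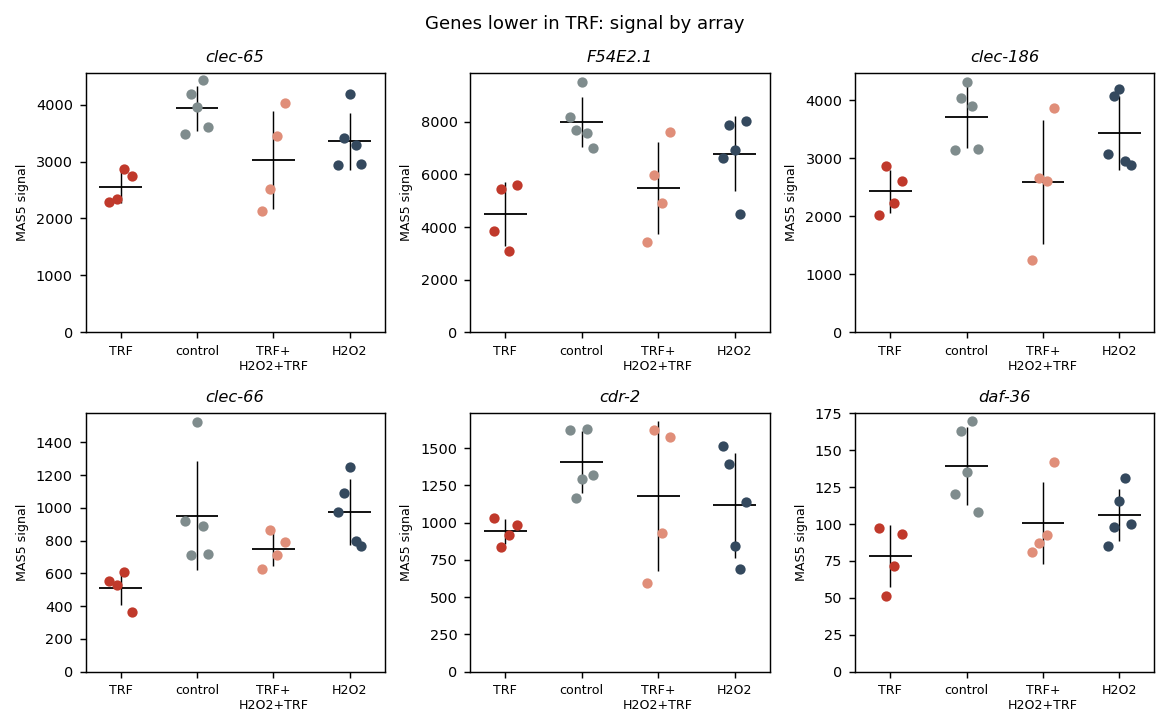
MAS5 signal (vertical axes, linear, from 0) of 6 genes in every array of the 4 groups: 1 point an array, horizontal line the mean, vertical line ± SD. The 4 TRF arrays of each gene lie below all 5 control arrays, whereas the TRF+H2O2+TRF arrays reach into the H2O2 range for all 6.

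The T16G1 genes form a run in the gene table. That list was picked earlier for its values in these arrays, so its direction is a description only. T16G1.7 had signals of 227, 322, 334 and 234 in TRF arrays and 91.5, 128, 188, 55.1 and 66.8 in control arrays. The groups did not overlap, and the log2 fold change was 1.51 ± 0.327, or 2.84-fold. Neighbours T16G1.6 and T16G1.4 had 0.66 ± 0.238 and 0.85 ± 0.319, while the other 3 measured members lay between -0.01 and 0.24.

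F07C3.9, which is in none of these lists, had signals of 577, 563, 591 and 720 in TRF arrays, against 352, 276, 357, 391 and 287 in control arrays and did not overlap. Its log2 fold change was 0.89 ± 0.156 (limma adjusted p = 0.301). The gene drd-10, named for being lower under dietary restriction, had signals of 109, 109, 154 and 72.6 in TRF arrays and 48.0, 71.3, 25.6, 40.5 and 33.1 in control arrays. Its groups were narrowly parted, and its log2 fold change was 1.36 ± 0.316. Control signals of drd-10 were low, with a mean of 43.7, near the filter level of 47.0. The aquaglyceroporin gene aqp-1, of a glycerol channel in the intestine, had 1158, 1137, 2010 and 879 in TRF arrays and 596, 972, 330, 906 and 771 in control arrays, with overlap and a value of 0.88 ± 0.312.

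The remaining higher genes had log2 fold changes between 0.52 and 0.94. They included magu-2 of the membrane-associated guanylate kinase family (0.94 ± 0.251), glo-3, needed to form the lysosome-related gut granules (0.73 ± 0.199), and kpc-1, a furin-like protease that processes secreted precursors (0.73 ± 0.223). All 3 further probe sets of kpc-1 were higher as well. Also among them were pan-1, a leucine-rich repeat protein of germ granules (0.62 ± 0.150), haly-1, a histidine ammonia-lyase of histidine breakdown (0.52 ± 0.167), the glutamate receptor gene glr-6 (0.67 ± 0.217), the transporter family gene mfsd-13.2 (0.76 ± 0.233) and the O-acyltransferase homologue oac-32 (0.70 ± 0.220). T01D3.6 and C52E2.4 each had 0.66. The further probe set of pan-1 gave 0.28 ± 0.244.

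On the lower side, F54E2.1 had signals of 3841, 5454, 3103 and 5603 in TRF arrays, against 8172, 7702, 9522, 7576 and 7020 in control arrays. Both groups were bright and did not overlap, with a log2 fold change of -0.86 ± 0.167 (limma adjusted p = 0.427). The germline gene rog-1, which acts in Ras activation during oocyte development, had 56.4, 73.6, 60.9 and 63 in TRF arrays and 75.2, 136, 126, 142 and 193 in control arrays, a value of -1.02 ± 0.259. The further probe set of rog-1 gave -0.28 ± 0.270. For fnip-2, whose product is related to the folliculin-interacting proteins, signals were 169, 250, 212 and 182 in TRF arrays and 272, 336, 344, 282 and 300 in control arrays, a value of -0.60 ± 0.169. The further probe set of fnip-2 gave -0.22 ± 0.241. These 3 genes share no list here.

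Other genes with separate groups were hal-2, needed to align homologous chromosomes in meiosis (-0.45 ± 0.136), pph-4.2, a catalytic subunit of protein phosphatase 4 (-0.36 ± 0.109), and ent-4, a nucleoside transporter family gene (-0.71 ± 0.246). Genes of unstated role in the same set were F01D5.2 (-0.74 ± 0.210), ZK856.5 (-0.68 ± 0.176), F56F10.1 (-0.51 ± 0.133), Y56A3A.2 (-1.03 ± 0.269, and -0.55 ± 0.317 with its further probe set), C40H1.7 (-1.01 ± 0.341), Y41D4B.18 (-0.90 ± 0.292) and K10D11.6 (-1.06 ± 0.332). The last 3 were dim in both groups.

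The TRF+H2O2+TRF and H2O2 arrays allowed the same genes to be read in worms that all had hydrogen peroxide, with and without TRF. None of these arrays entered the comparison above, but arrays of the same replicate number varied together: residuals correlated at 0.350 to 0.686 between TRF+H2O2+TRF and TRF arrays and at 0.280 to 0.681 between H2O2 and control arrays. In TRF+H2O2+TRF against H2O2 worms, 0 of 13529 probe sets passed an adjusted p under 0.05 (limma), and 302 (2.23%) had an unadjusted p under 0.05. By the methods' t-test 0 passed after adjustment and 366 before it.

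F42A10.7 had signals of 1427, 916, 1114 and 243 in TRF+H2O2+TRF arrays, against 363, 599, 622, 418 and 632 in H2O2 arrays. Replicates 1 to 3 of TRF+H2O2+TRF lay above all H2O2 arrays and replicate 4 lay below all of them. The log2 fold change there was 0.59 ± 0.414 (limma adjusted p = 1.00). The difference between the 2 TRF effects was -1.79, with an unadjusted p under 0.05 that did not pass over all probe sets (limma adjusted p = 1.00), where 0 probe sets were called and 154 (1.14%) had an unadjusted p under 0.05. That fit took the arrays as independent, although same-numbered arrays varied together. F42A10.7 was named for its TRF against control value, which enters that difference, so the choice bears on its p there.

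Of the 20 genes higher in TRF worms, 17 had the same sign in TRF+H2O2+TRF against H2O2 worms, with a median of 0.27 there, beside 0.76 in the first comparison. Over all 10286 genes, 54.2% had a higher mean in TRF+H2O2+TRF worms. Of the 20 genes lower in TRF worms, 17 also had the same sign, with a median of -0.19 beside -0.65. The first medians come from the choice of genes and are no finding. Across 13529 probe sets the log2 fold changes of the comparisons correlated at r = 0.307 (Spearman's rho 0.303), a description over probe sets of arrays whose same-numbered replicates varied together.

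Some genes had values of the same sign in both sets and an unadjusted p under 0.05 in each. Among these was fat-3, with 5582, 2921, 3280 and 2787 in TRF+H2O2+TRF arrays and 2507, 2271, 2248, 3443 and 2168 in H2O2 arrays, a log2 fold change of 0.49 ± 0.204. All but 1 of these H2O2 arrays lay below the lowest TRF+H2O2+TRF array. F07C3.9 had 0.55 ± 0.243, F01D5.2 had -0.96 ± 0.393 and ZK856.5 had -0.54 ± 0.242. From the lists, aqp-1 had 1.05 ± 0.298, cpt-4 had 0.76 ± 0.239 and ftn-1 had 0.66 ± 0.255. Likewise cyp-34A9 had 0.83 ± 0.337 and T16G1.4 had 0.75 ± 0.316. Each of these genes had the sign it had without hydrogen peroxide. All had an unadjusted limma p under 0.05 there and none passed over all probe sets. Same-numbered arrays of the sets varied together, so these values are not an independent repeat. The share of all genes that met both conditions was not counted.

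Other genes had values near 0 or of opposite sign with hydrogen peroxide. The value of pcp-1 was 0.01, that of cdr-2 was 0.03, that of nhr-8 was 0.02 and that of daf-36 was -0.09. For drd-10 it was -0.57, with 120, 59.4, 37.2 and 110 in TRF+H2O2+TRF arrays and 238, 56.7, 73.3, 257 and 62.7 in H2O2 arrays. For fnip-2 it was 0.54, with 387, 277, 385 and 366 in TRF+H2O2+TRF arrays and 251, 320, 277, 156 and 237 in H2O2 arrays. The fnip-2 difference between the 2 TRF effects was 1.14 ± 0.272 (limma adjusted p = 1.00). Among the 40 genes, 7 higher and 4 lower had an unadjusted limma p under 0.05 for that difference, beside 1.14% of all probe sets. Of them, 0 passed over all probe sets. The 40 genes, fnip-2 among them, were chosen for their TRF against control values, which enter that difference. The choice bears on these counts, which are no finding.

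**Figure D4:**
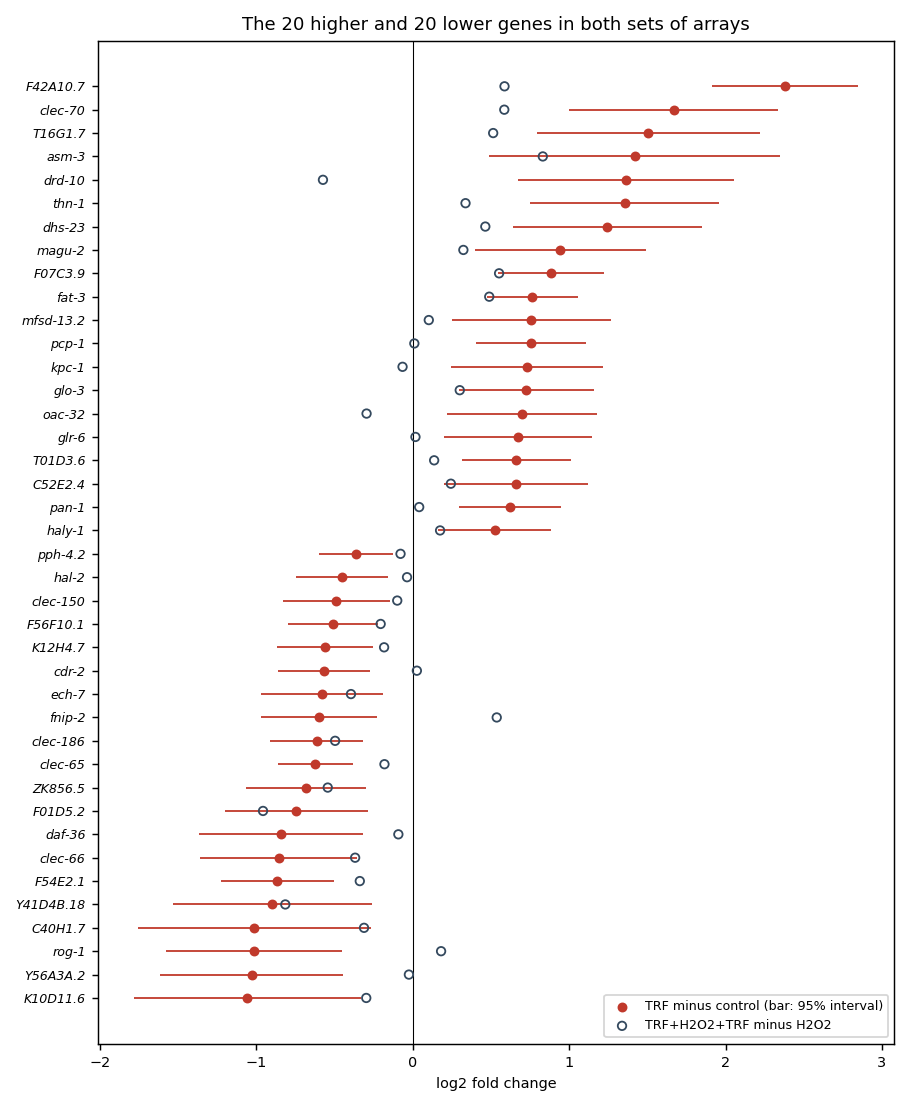
Log2 fold changes (horizontal axis) of the 20 higher and 20 lower genes: filled points TRF minus control with 95% limma intervals, open points TRF+H2O2+TRF minus H2O2. The filled points were chosen for lying apart from 0, and 17 of 20 open points in each direction lie on the same side of 0.

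List by list, the counts of higher members in the 2 sets of arrays were alike for some families and not for others. Over all 10286 genes, 54.2% had a higher mean in TRF+H2O2+TRF than in H2O2 worms. For fatty acid oxidation genes the count in TRF against control, 31 of 51, was near the 56.1% of all genes. UDP-glucuronosyltransferases were higher for 37 of 45 genes in TRF+H2O2+TRF worms (median 0.19), nuclear hormone receptors for 105 of 136 (0.17) and fatty acid oxidation genes for 34 of 51 (0.07). Glutathione S-transferases were higher for 11 of 33 (-0.10) and intestinal proteases for 3 of 18 (-0.13). By contrast lysozymes and related genes had 26 of 52 higher with a median of 0.00, and ABC transporters had 17 of 37 with -0.01. The difference between the sets was not tested for any list.

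**Figure D5:**
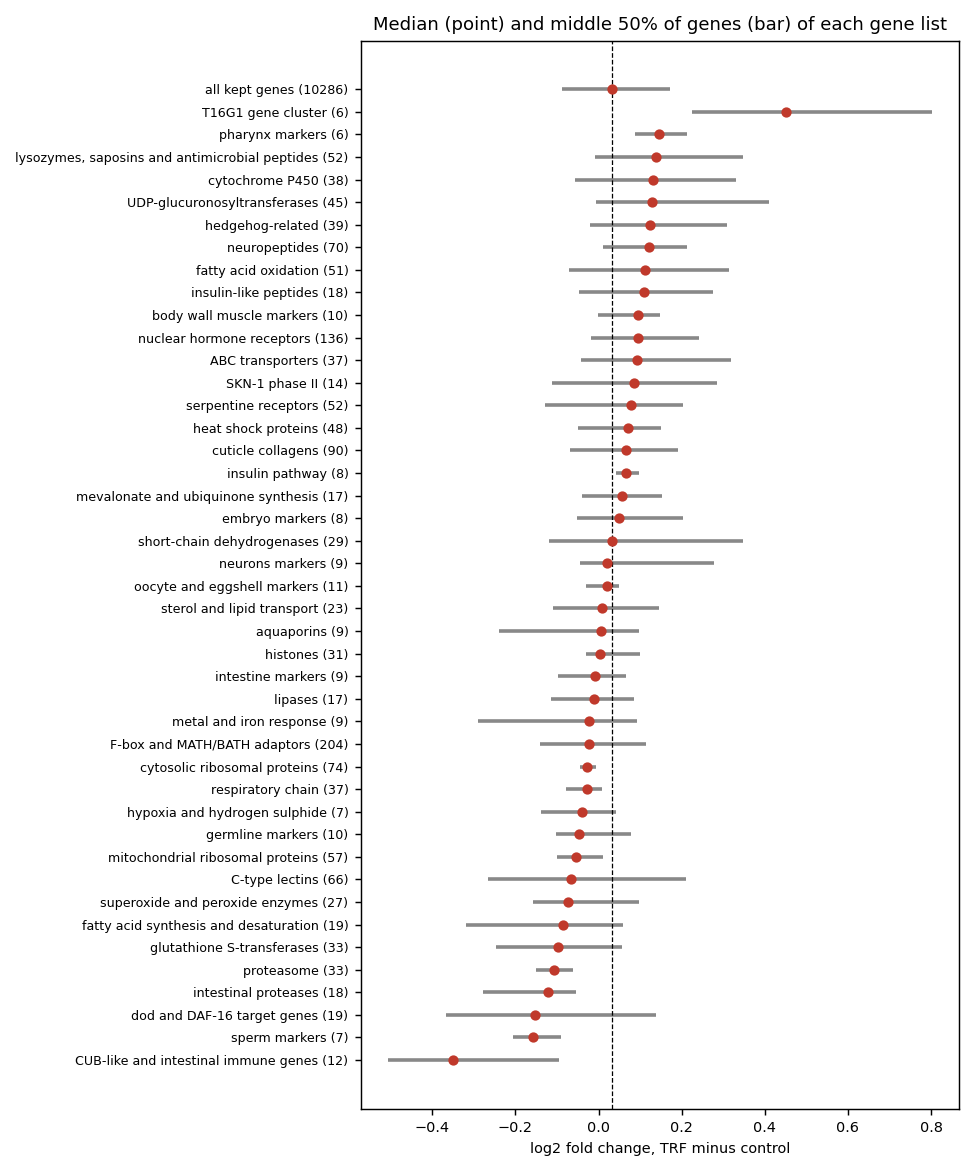
Median (point) and middle 50% (bar) of the log2 fold changes, TRF minus control, of each gene list of 6 or more measured genes, with the number of genes in brackets; the dashed line is the median of all genes, 0.03. Medians run from -0.35 for the CUB-like and intestinal immune genes to 0.45 for the T16G1 genes, a list picked earlier for its values.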

How the data were processed

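The deposited values are intensity values, MAS5 signals on a linear scale; the submitters' processing notes name MAS5 and Affymetrix Expression Console, with versions not given in the sources used here. The trimmed mean (2% off each end) shows that the authors scaled the arrays to a common level. Signals were taken as log2(signal + 1) with no further normalization. The 77 control probe sets were left out, and 13529 of 22548 probe sets at or above the 40th percentile of mean signal (a geometric mean of 47.0) were kept. Groups came from titles. TRF was compared with control, TRF+H2O2+TRF with H2O2, and the difference of these effects was fitted over 18 arrays, with limma 3.58.1 in R 4.3.3 (lmFit, eBayes with trend, two-sided, Benjamini-Hochberg adjusted p under 0.05). The series design names the first pair of comparisons and an unpaired test, given as the methods' t-test. The fit was tested on simulated data: of 200 changed probe sets among 13529, 63% were found at 2-fold and 93% at 4-fold for TRF against control. False calls numbered 10 at 2-fold and 11 at 4-fold. The simulated noise was independent between arrays, whereas some same-numbered arrays here varied together, so these rates need not hold for the measured arrays. The number of arrays limits the precision.

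Gene symbols came from the array's probe annotation and RefSeq, with 1 probe set a gene, that with the highest mean signal (10286 genes); 442 kept probe sets with several symbols and 239 with none were left unnamed. Named genes were those past the threshold, the 20 in each direction with the smallest p and the 10 with the largest fold among genes whose arrays do not overlap, up to 4 members of each list with the smallest p, 11 stress and yolk genes, and neighbours of named genes. Members and the 48 gene lists were chosen with earlier results of these data known. Lists are described by counts and medians, without a set test. Alternatives covered the filter, pseudocount, normalization, array weights, variance trend, replicate number as a block, leaving out each array and leaving out the later-submitted arrays numbered 5.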

Additional observations from a re-analysis of the deposited data

Results flagged for a closer look

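Of 82 groups of 4 or 5 arrays checked over 41 named genes, 5 held 1 array far from the others by Dixon's criterion; chance gives about 1 in 20 groups. F42A10.7 had a signal of 176 in control replicate 5, against 304 to 345 in the other controls; without that array its log2 fold change was 2.21. In clec-70 the same array had 24.1, against 50.5 to 62.1 in the other controls. For hal-2, TRF replicate 1 had 572, against 747 to 776 in the other TRF arrays, and control replicate 1 had 825, against 988 to 1061 in the other controls. For kpc-1, control replicate 4 had 309, against 594 to 695 in the other controls.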

How the results depend on the processing

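The count of called probe sets was 1, F42A10.7, in most settings tried: array weights, no variance trend, all 18 arrays in 1 fit, pseudocount 16, median centring, quantile normalization, no filter, the filter at the 60th percentile, and without the later arrays. The methods' t-test called 0 after adjustment (561 at an unadjusted p under 0.05), where F42A10.7 had 2.38 with an adjusted p of 0.312. Over limma settings its log2 fold change was 2.20 to 2.52 and its adjusted p 0.000148 to 0.0403. Leaving out 1 array at a time gave 1 to 2 calls, 2 without TRF replicate 2. Residuals of same-numbered TRF and control arrays correlated at 0.302, 0.541 and 0.355 for numbers 1, 2 and 4 but at -0.224 for number 3, where the TRF array correlated at 0.523 with control replicate 5. Since 1 of 4 pairs fell short, the numbers were not taken as pairs, although 3 hint at a link that the labels do not state. With the replicate block the count was 1 and F42A10.7 had 2.21 (adjusted p = 0.00182), and with the block over numbers 1, 2 and 4 alone it was 25. The latter fit kept only the numbers whose residuals correlated positively, so its choice rested on these data. Of the genes named here, C40H1.7, F07C3.9, T16G1.7, clec-5, clec-65, clec-70, fat-3, ftn-1, ilys-2, ilys-3 and thn-1 passed in that last fit in addition to F42A10.7; the cause was not tested.

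TRF+H2O2+TRF against H2O2 and the difference between the 2 TRF effects gave 0 calls in all settings tried; with the replicate block the difference had 384 probe sets at an unadjusted p under 0.05, against 154 without it. The filter at the 60th percentile left fewer of the 20 genes in each direction, with 8 higher and 11 lower of the same sign. Of 47 list medians, 22 kept their sign in each of 19 settings and 25 did not.

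The stress and yolk genes ctl-2, daf-16, gst-4, skn-1 and vit-2, with values near 0, took the other sign in some settings. With quantile normalization ctl-2 had 0.017, daf-16 -0.0017 and vit-2 0.0048. With median centring daf-16 had -0.017 and skn-1 -0.0078. With the replicate block, and without the later arrays, ctl-2 had 0.0068, gst-4 0.136 and skn-1 -0.011. With the block over numbers 1, 2 and 4 ctl-2 had 0.046. Leaving out 1 array at a time gave -0.073 to 0.010 for ctl-2, -0.061 to 0.158 for daf-16, -0.320 to 0.170 for gst-4, -0.068 to 0.177 for skn-1 and -0.086 to 0.021 for vit-2. For F42A10.5 (the first probe set named) it gave -0.210 to 0.015.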

Other observations

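Genes of protein synthesis and turnover had mostly lower means in TRF worms. Of 33 proteasome subunit genes, 4 were higher and 29 lower, with a median log2 fold change of -0.11 and a range of -0.29 to 0.13, and none had an unadjusted limma p under 0.05. The mean log2 signal of the proteasome genes per array was 11.56 to 11.70 in TRF arrays and 11.68 to 11.81 in control arrays, so the groups just overlapped. In TRF+H2O2+TRF against H2O2 worms 6 of 33 were higher, with a median of -0.11. Cytosolic ribosomal protein genes had 11 of 74 higher with a median of -0.03, which was above 0 without control replicate 2 or 3 (up to 0.015). Their mean log2 signal per array was 13.83 to 13.94 in TRF arrays, inside the 13.71 to 14.06 of control arrays. In TRF+H2O2+TRF against H2O2 worms 0 of 74 were higher, with a median of -0.19. The array means there, 13.79 to 13.91 and 13.89 to 14.22, overlapped. Mitochondrial ribosomal protein genes had 18 of 57 higher with -0.06. The mitochondrial ribosomal protein gene mrpl-10 had signals of 1141, 1209, 1250 and 1263 in TRF arrays and 1371, 1567, 1513, 1421 and 1427 in control arrays, without overlap.

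Neuropeptide genes had 53 of 70 members higher with a median of 0.12, which ranged from 0.025 to 0.269 over the settings tried. The lowest p was that of nlp-51, at 0.45 ± 0.193. Of 39 hedgehog-related and patched-related genes, 27 were higher with a median of 0.12, and ptr-24 (0.38), ptr-11 (0.55) and ptr-20 (0.47), which encode patched-related membrane proteins, had an unadjusted limma p under 0.05, against 2.02% of all genes. The median of that list ranged from 0.026 to 0.254 over the settings tried. Cuticle collagen genes had 59 of 90 higher, with a median of 0.07, in TRF worms, but 19 of 90 higher, with a median of -0.20, in TRF+H2O2+TRF against H2O2 worms; the difference was not tested. The median of 0.07 ranged from -0.14 to 0.26 over the settings tried and was below 0 with array weights, with the block over numbers 1, 2 and 4, without TRF replicate 1 and without control replicate 3. Hypodermis markers had 4 of 5 higher in TRF worms, with a median of 0.29, and their part in the collagen values was not tested. The collagen gene col-129 was the one with an unadjusted limma p under 0.05 (1.11% of the list, beside 3.46% of all genes). Its signals were 12.7 to 98.8 in TRF arrays and 37.2 to 242 in control arrays.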
